A study of Mus musculus with 6 samples.

Results

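Genes that mark the birth and early life of neurons were examined in the hippocampus of mice given the antidepressant venlafaxine. The 10 genes were Dcx, Sox11, Sox4, Neurod1, Eomes, Calb2, Igfbpl1, Mki67, Top2a and Nes, a list set by gene name and known function, with no measured value in the rule but with earlier results of these data known, out of 18193 genes with a probe set of their own on the array. A probe set is the group of short probes that the array uses to read 1 transcript. Every probe set annotated with exactly 1 gene symbol, that symbol being 1 of the 10, was taken, which gave 32 of 45101 probe sets. The probe set with the highest mean stood for its gene. The animals were male DBA/2 mice housed singly, and venlafaxine was given in the drinking water for about a month. The control group took 0, the low dose group 30 and the high dose group 100 mg per kg body weight per day, with 10 animals in each group. RNA was pooled by brain side within each dose, so each group has 2 arrays, 1 of left and 1 of right hippocampi. A pool averages over its animals, and the labels do not say whether the left and right pools came from the same brains, so errors and p-values describe the spread between pools, which may be technical.

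Neurons are added to the dentate gyrus of adult mice by radial glia-like stem cells in the subgranular zone, which contain the filament protein nestin, encoded by Nes. Their dividing daughters carry the T-box factor encoded by Eomes and the proliferation genes Mki67 and Top2a, and the young neurons that follow pass through a stage with doublecortin, encoded by Dcx, and then a short stage with calretinin, encoded by Calb2. Chronic antidepressant treatment is widely reported to raise the number of such cells in rodents, and these cells are a small share of all hippocampal cells. None of the genes is limited to them: Neurod1 is also used by mature granule cells, Nes by blood vessels, and Calb2 by interneurons and mossy cells. In RNA from whole tissue, fewer cells of a type and less RNA per cell cannot be told apart.

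The dates and the sides of the arrays overlap in a fixed way. Control replicate 1 (right), both low dose arrays (replicate 1 right, replicate 2 left) and high dose replicate 1 (left) were hybridized on a first date, and high dose replicate 2 (right) and control replicate 2 (left) on a later date. The RNA integrity number, a score of how whole the RNA is, was 8.2 and 7.9 on the later date and between 8.5 and 9.1 on the first. All values below are on the deposited log2 scale, on which a difference of 1 is a doubling. The array medians were 7.79 to 7.80, and the 95th percentiles lay between 11.46 and 11.65.

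Genes entered the test if they lay above the array median on at least 2 arrays, a line that stands in for a detection call, which the deposited table does not hold. All 12 listed markers of mature dentate granule cells, Prox1 and Calb1 among them, passed this filter, as did 7 of the 10 genes and 64.5% of all 18193. Eomes, Mki67 and Top2a lay below the median on all 6 arrays with every probe set they have, 2 for Eomes, 1 for Mki67 and 3 for Top2a. Of 20 further cell cycle genes 19 had a probe set and 5 passed the filter, and the mitotic genes Cdk1, Ccnb1, Birc5 and Aurkb were not among them. Igfbpl1, which encodes a secreted binding-protein-like factor made by newborn neurons, sat on the line, with 7.81 and 7.66 in the controls, 7.81 and 7.76 at the low dose and 7.81 and 7.74 at the high dose. It was above the median on 3 arrays, and its second probe set lay below the median on all 6. Of the 32 probe sets, 14 were above the median on all 6 arrays, 16 were below it on all 6 and 2 were mixed.

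**Figure D1:**
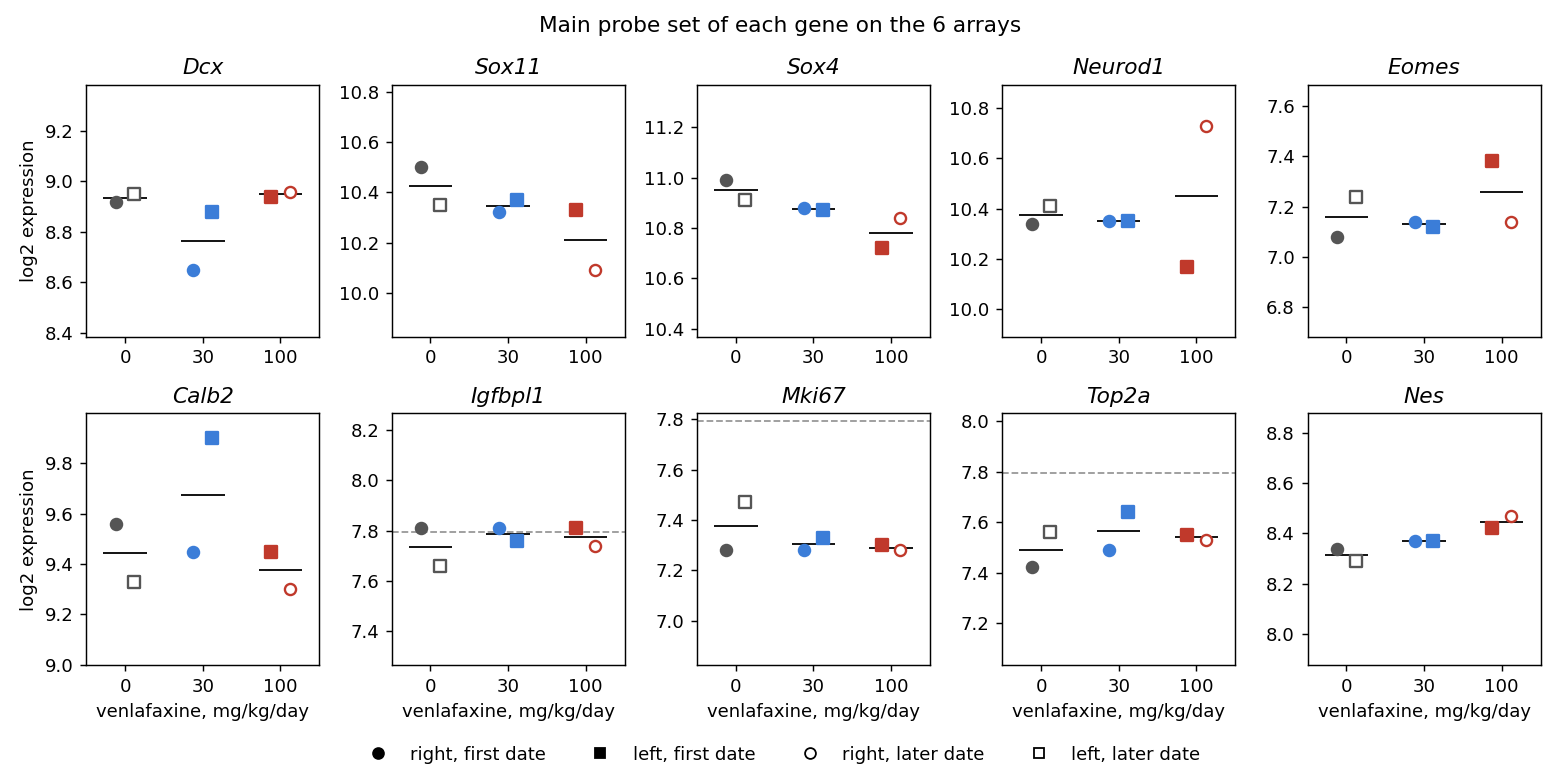
Each panel plots the log2 expression (vertical axis, 1 log2 unit tall) of the main probe set of 1 gene against venlafaxine dose in mg per kg per day, with points for arrays, circles for right and squares for left pools, filled for the first and open for the later date, short lines for group means and a dashed line for the mean array median where it falls in the panel. Mki67 and Top2a lie below the dashed line, Neurod1 is spread widest at the high dose, and Calb2 is highest on the left low dose pool.

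The first question was whether these genes differed between the doses. None of the 7 tested genes passed the threshold (limma, Benjamini-Hochberg adjusted p under 0.05 over 11743 genes) at the high dose against control, where 0.00852% of all tested genes passed, at the low dose against control, where 0.0426% passed, or between the doses, where 0.0% passed. At an unadjusted p under 0.05 the counts were 0, 0 and 1 of 7, the 1 being Calb2 between the doses. With limma's trend and robust settings 0 of 7 passed in each of the 3 comparisons, and over all genes between the doses 25 passed, with 729 at an unadjusted p under 0.05 in the fit without those settings. The 95% intervals show what this leaves: for the 7 genes at the high dose they reached from -0.44 for Sox11 at the low end to 0.34 for Neurod1 at the high end. A miss of the threshold does not show that the doses were alike.

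The 10 genes were also read by whether the arrays of 2 groups overlapped. At the high dose 1 gene lay above both controls (Nes) and 2 lay below both (Sox11 and Sox4), beside 12.9% and 14.5% of all 18193 genes. At the low dose 1 lay above (Nes) and 2 below (Dcx and Sox4), beside 13.6% and 9.28%. Between the doses 2 lay higher at the high dose (Dcx and Nes) and 2 lower (Sox4 and Calb2), beside 11.9% and 27.2%. These counts of 10 lie near the shares of all genes.

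**Figure D2:**
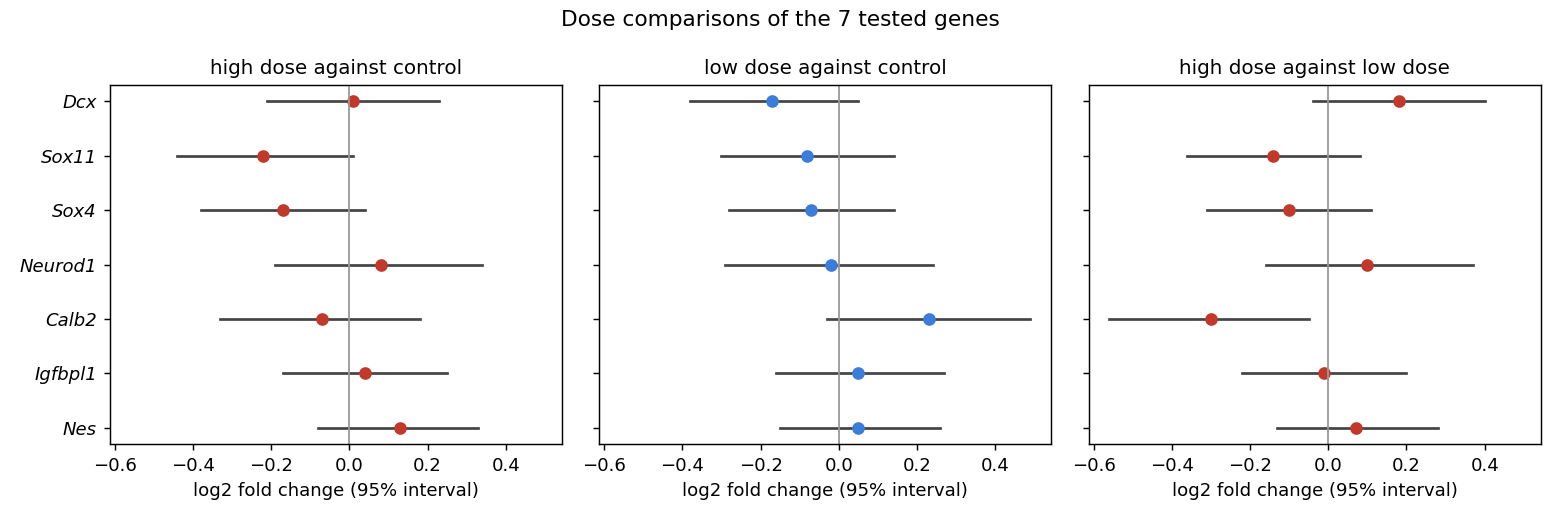
Points are log2 fold changes of the 7 tested genes in the 3 dose comparisons and bars their 95% intervals from limma over all 6 arrays, with a vertical line at 0. All bars cross 0 except that of Calb2 between high and low dose, which runs from -0.56 to -0.05.

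At the stem cell end, Nes was measured by 1 probe set above the array median. Its values were 8.34 and 8.29 in the controls, 8.37 and 8.37 at the low dose and 8.42 and 8.47 at the high dose. The 3 groups did not overlap and stood in order of dose, an order whose share over all genes was not counted, and the steps were small. The log2 fold change was 0.13 at the high dose (SE 0.10, 95% interval -0.08 to 0.33, limma adjusted p = 1.00) and 0.05 at the low dose (SE 0.10, interval -0.15 to 0.26, adjusted p = 1.00). Within the first date the high dose array was 0.08 higher than the control, within the later date 0.18 higher, and 0.13 higher in both sides. The other 2 probe sets of Nes, both below the median, had log2 fold changes of -0.03 and 0.0033 at the high dose.

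The genes of dividing progenitors did not pass the filter, and their values are given first. Eomes, the T-box factor of the committed progenitor, had 7.08 and 7.24 in the controls, 7.14 and 7.12 at the low dose and 7.38 and 7.14 at the high dose. Mki67, the gene of the Ki-67 proliferation antigen, had 7.28 and 7.47, 7.28 and 7.33, and 7.30 and 7.28 in the same order of groups. Top2a, the DNA topoisomerase of dividing cells, had 7.42 and 7.56 in the controls, 7.49 and 7.64 at the low dose and 7.55 and 7.53 at the high dose. In all 3 genes the groups overlapped, so that no order of the doses can be read from them. In the fit over all 34945 probe sets, none of their 6 passed against control, with log2 fold changes between -0.09 and 0.10 at the high dose and between -0.07 and 0.08 at the low dose (limma adjusted p = 1.00 each).

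Dcx, which encodes a microtubule-binding protein of migrating young neurons, differed little between the high dose and the controls. Its main probe set read 8.92 and 8.95 in the controls, 8.65 and 8.88 at the low dose and 8.94 and 8.96 at the high dose. The control and high dose arrays lay between 8.92 and 8.96, and both low dose arrays lay below all 4 of them, the right pool by more. The log2 fold change was 0.01 at the high dose (SE 0.10, interval -0.21 to 0.23, limma adjusted p = 1.00), -0.17 at the low dose (SE 0.10, interval -0.38 to 0.05, adjusted p = 1.00) and 0.18 between high and low dose (SE 0.10, interval -0.04 to 0.40, adjusted p = 0.833). The low dose difference was -0.16 among arrays of the first date, -0.06 in left pools and -0.27 in right pools. Without low dose replicate 1 it was -0.05, and in the mean of the gene's probe sets -0.08. A second probe set above the median gave -0.12 at the low dose and again had both low dose arrays (8.03 and 8.11) below both controls (8.13 and 8.25), but its high dose arrays stood apart at 8.05 and 8.43. The remaining 2 probe sets of Dcx were below the median on every array.

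Sox11 and Sox4 belong to the SoxC group of transcription factors, which switch on neuronal genes, Dcx among them, in cells leaving the stem cell state. Sox11 read 10.50 and 10.35 in the controls, 10.32 and 10.37 at the low dose and 10.33 and 10.09 at the high dose. The right high dose pool was the lowest of the 6 arrays and the right control pool the highest. The high dose log2 fold change was -0.22 (SE 0.11, interval -0.44 to 0.01, limma adjusted p = 1.00, unadjusted p = 0.0557). Sox4 read 10.99 and 10.91 in the controls, 10.88 and 10.87 at the low dose and 10.72 and 10.84 at the high dose. Its 3 groups stood in falling order without overlap, though the nearest control and low dose arrays read 10.91 and 10.88. How many of all genes show such an order was not counted. The high dose log2 fold change of Sox4 was -0.17 (SE 0.10, interval -0.38 to 0.04, limma adjusted p = 1.00), and -0.05 in the mean of its probe sets. Without high dose replicate 2 the Sox11 value was -0.10, without control replicate 1 it was -0.14, and without high dose replicate 1 the Sox4 value was -0.11.

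Sox11 is read by 6 probe sets, 5 of them above the median on all arrays, and these allow a look at how firmly the gene's value stands. All 5 had lower means at the high dose, by log2 fold changes of -0.42 to -0.22, and in all 5 both high dose arrays lay below both controls. Among all 18476 probe sets above the median on every array, 18.4% lay lower at the high dose without overlap. The 5 probe sets read the same pools and the same gene, so they are not independent. The widest difference was that of 1436790_a_at, with 9.33 and 9.19 at the high dose against 9.79 and 9.58 in the controls (log2 fold change -0.42, SE 0.09, unadjusted p = 0.00139, limma adjusted p = 1.00 over 34945 probe sets, of which 0.0% passed). At the low dose all 5 had lower means too, by -0.29 to -0.08, and 3 of the 5 did not overlap the controls, where 10.5% of such probe sets lay lower without overlap. The sixth probe set, near the median, differed by 0.0065 at the high dose. Of the 3 Sox4 probe sets above the median, all had lower means at the high dose (-0.17 to -0.06), and 1 of them did not overlap. The 5 dimmer ones ran from -0.10 to 0.08, and 1 of these lay above both controls without overlap.

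**Figure D3:**
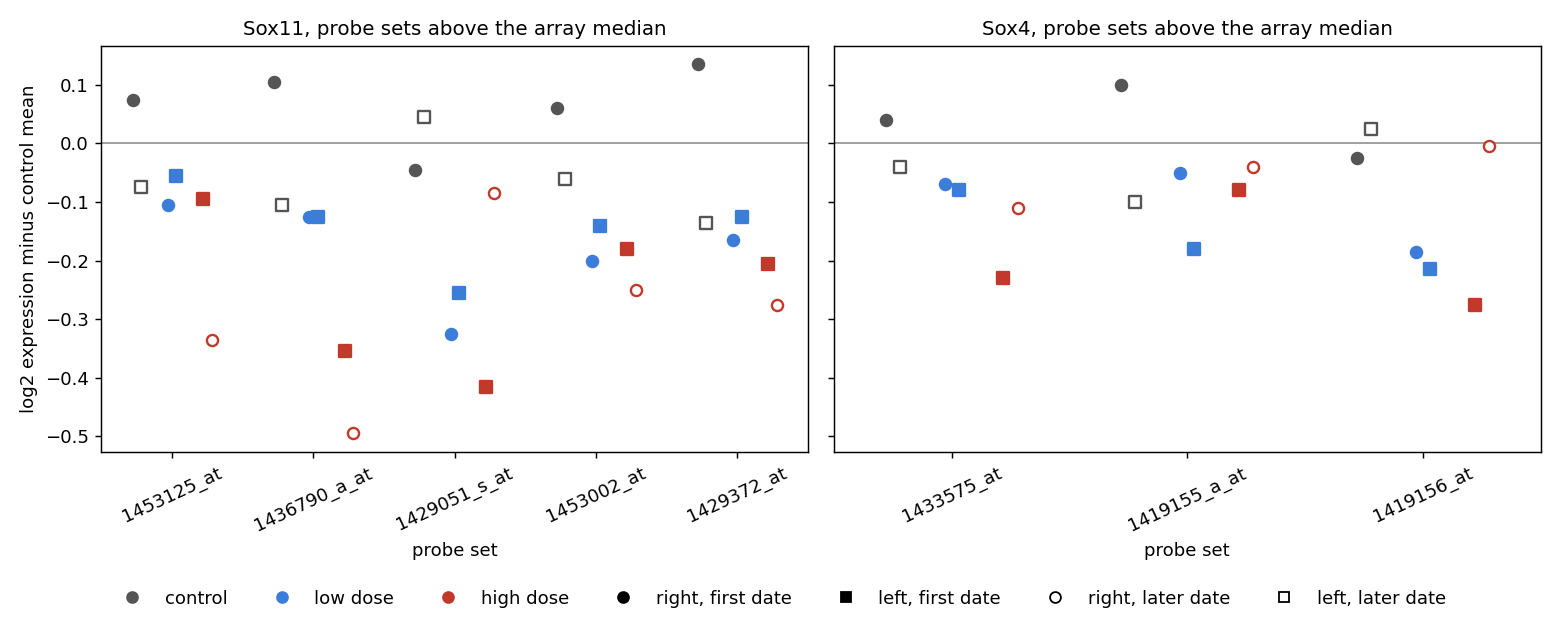
Each column is a probe set of Sox11 (left panel) or Sox4 (right panel) above the array median, and points are arrays, plotted as log2 expression minus the mean of the 2 control arrays, with colours for dose, shapes for side and open symbols for the later date. In all 5 Sox11 probe sets the high dose points lie below both control points, at a mean of -0.42 to -0.22.

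The Sox11 difference had the same sign within both dates and on both sides. Its main probe set differed by -0.17 among first-date arrays and by -0.26 among later ones, by -0.02 in left pools and by -0.41 in right pools. For Sox4 the values were -0.27 and -0.07 by date and -0.19 and -0.15 by side. Over all tested genes the median difference between high dose and control was -0.085 within the first date and 0.023 within the later one. Markers of neighbouring tissue were read beside this. All 9 tested neocortex markers had lower means at the high dose (median -0.21, 0 passed), with summed levels of 93.6 to 93.9 at the high dose and 95.3 to 96.3 in the controls. All 7 tested striatum markers did so as well (median -0.32, 0 passed), with sums of 66.6 to 68.2 at the high dose and 68.8 to 70.1 in the controls. At the low dose 8 neocortex markers had a lower and 1 a higher mean (median -0.13, 0 passed). Of the striatum markers 6 had a lower and 1 a higher mean there (median -0.09, 0 passed). The neocortex list shares Tbr1 with the progenitor genes given below. The part of such tissue in the Sox11 and Sox4 values was not tested.

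The promoters of Sox11 and Sox4 are shown because these 2 genes lay lower together at the high dose. The sequences are from RefSeq (build GRCm38.p6, the C57BL/6J reference, not DBA/2), run 5′ to 3′ from 250 bases before to 50 bases after the gene's start, and capitals mark CCAAT or its reverse complement.
Sox11, chr12:27342669-27342968, minus strand: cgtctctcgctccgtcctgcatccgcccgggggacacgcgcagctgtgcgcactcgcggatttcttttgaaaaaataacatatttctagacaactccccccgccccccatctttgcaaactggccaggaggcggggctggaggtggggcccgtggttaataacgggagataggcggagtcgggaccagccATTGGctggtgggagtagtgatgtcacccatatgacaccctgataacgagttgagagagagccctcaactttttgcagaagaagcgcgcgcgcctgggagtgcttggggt
Sox4, chr13:28953650-28953949, minus strand: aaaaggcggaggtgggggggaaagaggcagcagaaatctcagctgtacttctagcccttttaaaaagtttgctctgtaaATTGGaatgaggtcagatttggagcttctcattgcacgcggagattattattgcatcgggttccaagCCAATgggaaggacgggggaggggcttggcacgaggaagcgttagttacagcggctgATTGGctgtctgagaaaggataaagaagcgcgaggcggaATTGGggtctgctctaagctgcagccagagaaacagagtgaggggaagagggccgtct
CCAAT boxes are bound by the general factor NF-Y. The window of Sox4 holds 4 matches and that of Sox11 holds 1, and 37.4% of 32851 promoter windows hold at least 1. Among the other genes of the list with a window, Top2a holds 6, Mki67 3, Eomes 2 and each Dcx window 1, while Neurod1 and Nes hold 0. Both strands were searched for 6 motifs that may overlap each other. The GC box GGGCGG (35.7% of windows) was found 2 times in Sox11 and 0 times in Sox4, and the E box CANNTG (72.3%), the letters that factors such as the Neurod1 product bind, 2 times in Sox11 and 1 time in Sox4. The TATA box TATAAA (13.6%), the cyclic AMP response element TGACGTCA (1.79%) and the SOX motif CATTGT (12.6%) were in neither window. A match describes letters, not a site in use.

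Neurod1, a basic helix-loop-helix factor needed for granule neurons to form, depended on which probe set was read. Its main probe set had 10.34 and 10.41 in the controls, 10.35 and 10.35 at the low dose and 10.17 and 10.73 at the high dose. The 2 high dose arrays were the lowest and the highest of the 6, so the group mean says little, and the log2 fold change was 0.08 (SE 0.13, interval -0.19 to 0.34, limma adjusted p = 1.00). The high dose array differed from the control by -0.17 within the first date and by 0.32 within the later one.

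Between hybridization dates Neurod1 was the 1 of the 7 tested genes past the threshold, beside 6.97% of all tested genes. Its main probe set averaged 10.57 on the later date and 10.30 on the first, and with dose group as a term the log2 fold change was 0.32 (SE 0.09, limma adjusted p = 0.0147). Its second probe set went the other way by nearly as much. That probe set read 9.85 and 9.91 on the later date, against 10.14, 10.24, 10.24 and 10.21 on the first, a log2 fold change of -0.30 (SE 0.08, limma adjusted p = 0.0104 over 34945 probe sets, of which 7.22% passed). In the mean of the 2 probe sets the difference was 0.0055 (limma adjusted p = 0.986). With side as a term, or with trend and robust settings, the main probe set kept its difference of 0.32 but missed the threshold (adjusted p = 0.0935 and 0.0593). The higher value of the main probe set rests on the high dose pair, which differed by 0.56, while the control pair differed by 0.07: without either high dose array it was 0.07 (adjusted p = 0.818 and 0.819), and without either control array 0.56. The second probe set was lower on the later date by 0.28 in the high dose pair and by 0.33 in the control pair. The later arrays have the lower RNA integrity numbers, and date and integrity cannot be told apart here.

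**Figure D4:**
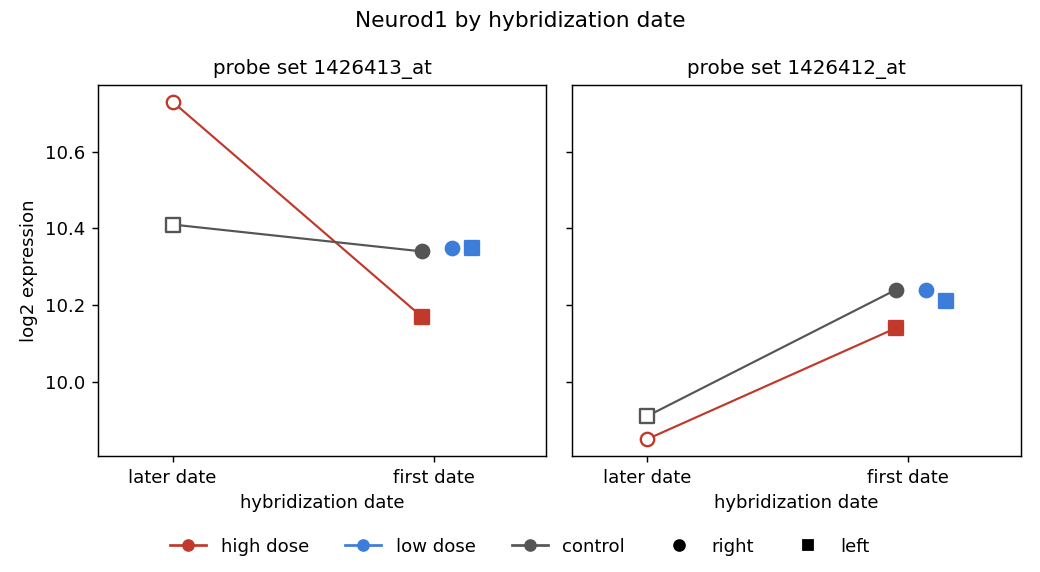
Log2 expression of the 2 Neurod1 probe sets, with the later date left of the first, lines joining the 2 high dose and the 2 control arrays, circles for right and squares for left pools. The left panel's probe set is higher on the later date, most of all at the high dose (10.73 against 10.17), and the right panel's is lower there in both groups.

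The other genes gave smaller date differences. Sox11 had a log2 fold change of -0.19 in the later against the first arrays (SE 0.09, limma adjusted p = 0.215), but its probe sets ran from -0.19 to 0.20. Calb2 had -0.19 (adjusted p = 0.236), and the values of Dcx, Sox4 and Nes lay between 0.0013 and 0.02. The second Dcx probe set above the median was 0.25 higher on the later date (limma adjusted p = 0.0554 over 34945 probe sets). Without overlap, 2 of the 10 genes were higher on the later date (Dcx and Neurod1) and 2 lower (Calb2 and Igfbpl1), beside 9.86% and 21.4% of all genes. These counts and shares leave out the dose group, and both low dose arrays are on the first date. The main Dcx probe set was 0.02 higher on the later date in the control pair and 0.02 in the high dose pair. Igfbpl1 had -0.11 in its main probe set, but 0.22 in its second, below the median (limma adjusted p = 0.101 over 34945 probe sets). From the stem cell and progenitor lists Sox2 (-0.40), Vim (-0.39), Insm1 (-0.59), Neurod6 (-0.51) and Tbr1 (-0.51) fell on the later date (limma adjusted p from 9.9e-08 to 0.0012). These are 2 of 12 tested genes of the stem cell list and 3 of 12 of the progenitor list, with 0 higher. Over all tested genes 5.73% fell and 1.23% rose. Tbr1 is also on the neocortex list, and whether these lists differ from all genes was not tested. Of 20 immature neuron genes Tubb2b fell (-0.38, adjusted p = 0.00162), of 12 mature granule cell genes Lct (-0.34, adjusted p = 0.00687), and 0 of 5 cell cycle genes passed. Of 18 niche genes Fgfr1 passed (-0.28, adjusted p = 0.0425), but its later array differed from the first by 0.02 in the high dose pair and by -0.58 in the control pair. Markers of other cells differed by date as well. C1qb of microglia (-0.57), Vtn and Pdgfrb of pericytes (-0.32 and -0.27) and Necab1 of mossy cells (-0.36) fell, while Cx3cr1 of microglia (0.31), Cacna2d2 of Cajal-Retzius cells (0.32), Ttr of the choroid plexus (0.33) and Dcn of fibroblasts (0.33) rose (limma adjusted p from 2.74e-07 to 0.0446). The rest of a list did not always follow its named gene. On the later date 1 of 7 tested meninges and fibroblast genes had a higher and 6 a lower mean. Of 9 choroid plexus genes 6 were higher and 3 lower, and of 10 endothelium and pericyte genes 6 and 4. Ttr differed by 0.49 in the high dose pair and by 0.17 in the control pair. The part of these other cells in the date differences of the neurogenesis genes was not tested.

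Calb2, the gene of the calcium-binding protein calretinin, had the widest range of the 7 tested genes. Its single probe set read 9.56 and 9.33 in the controls, 9.45 and 9.90 at the low dose and 9.45 and 9.30 at the high dose. The left low dose pool stood above the other 5 arrays, which lay between 9.30 and 9.56. The range of 0.60 was wider than that of 98.0% of tested genes, whose median range was 0.25. The log2 fold change was -0.30 between high and low dose (SE 0.12, interval -0.56 to -0.05, unadjusted p = 0.0225, limma adjusted p = 0.763), 0.23 at the low dose against control (SE 0.12, adjusted p = 1.00) and -0.07 at the high dose against control (SE 0.12, adjusted p = 1.00). Without low dose replicate 2 the high against low difference was -0.08 and the low dose difference from control 0.007, and without low dose replicate 1 they were -0.53 and 0.46. The low dose pool differed from the control pool by 0.57 in left and by -0.11 in right hippocampi.

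The array with the highest Calb2 value also had the highest 95th percentile over all probe sets (11.65), and the array with the second highest, control replicate 1, the second highest percentile (11.62), while the other 4 arrays had 11.46 to 11.52. After quantile normalization, which makes these percentiles equal, the high against low difference of Calb2 was -0.22. Interneuron markers, all 12 tested and 0 passed, had summed levels of 124.6 to 126.5 in the controls, 126.1 to 127.3 at the low dose and 125.2 to 126.0 at the high dose. Of these 12, 10 had a higher and 2 a lower mean at the low dose against control. Between high and low dose 1 had a higher and 11 a lower mean, where the median over all tested genes was -0.066. Their mean level was highest on the left low dose pool (10.60), followed by control replicate 1 (10.54). That order was not particular to interneurons. It was also that of the stem cell list (10.18 and 10.11), the mature granule cell list (10.05 and 10.04) and the microglia list (9.78 and 9.75). Some other lists differed, such as neocortex, which was highest on control replicate 1 (10.7). Markers of thalamus and habenula, where calretinin is also made, had 8 of 10 tested and 0 passed, with sums of 71.8 to 72.0 in the controls, 71.8 to 72.2 at the low dose and 71.2 to 71.8 at the high dose, and that list includes Calb2. Of the hypothalamus list, 5 of 9 were tested and Avp rose at the low dose (log2 fold change 0.96, limma adjusted p = 0.0193). Avp read 9.32 in the right and 8.40 in the left low dose pool, and Pmch, of the same list, 8.07 and 8.40. All 5 tested genes of the list were lower at the high than at the low dose without overlap, where 27.2% of all genes were. The Avp call was lost without the filter, in the mean of probe sets and with trend and robust settings (adjusted p = 1.00 each), after quantile normalization (0.874), and without low dose replicate 1 or 2 (0.50 and 1.42, adjusted p = 0.921 and 0.051). The part of these cells and tissues in the Calb2 values was not tested.

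The nearest patterns over the 6 arrays were described for Dcx and for Calb2. The genes most like Dcx were Zbtb10, Ankrd35 and Grp, with Pearson correlations of 0.974, 0.968 and 0.965 over 6 arrays, and 30 tested genes exceeded 0.9. Those most like Calb2 were Atp1b3, Mterf3 and Hnrnpul2, at 0.995, 0.994 and 0.994, and 669 tested genes exceeded 0.9. The arrays share 1 normalization, and the correlations are descriptions without a test.

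Between left and right pools 0 of the 7 tested genes passed, beside 0.0% of all tested genes, and 0 of 7 had an unadjusted p under 0.05. With dose group as a term the largest difference was that of Neurod1, at -0.16 (SE 0.11, interval -0.37 to 0.04, limma adjusted p = 1.00), followed by Calb2 at 0.12 (SE 0.11). Neither direction held when arrays were left out: Neurod1 had 0.03 without either high dose array, and Calb2 had -0.04 without either low dose array. The left and right pools of Neurod1 averaged 10.31 ± 0.12 and 10.47 ± 0.22 (SD, n = 3 each). Mki67 and Top2a, both below the array median, were the 2 of 10 genes higher in all 3 left pools than in all 3 right pools, by 0.09 and 0.10, where 2.45% of genes were.

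Other genes of the pathway were read from lists. Means were lower for 9 and higher for 3 of the 12 tested stem cell genes, and likewise of the 12 tested progenitor genes, at the high dose. At the low dose 8 of the stem cell genes had a higher and 4 a lower mean, and of the progenitor genes 9 and 3. Such splits were not counted over all tested genes. Of radial glia and stem cell genes 12 of 14 were tested, with a median log2 fold change of -0.06 at the high dose and 0.03 at the low dose against control, where the medians over all tested genes were -0.03 and 0.038. Hes5, a Notch target of stem cells, had -0.17 and Hopx 0.15 at the high dose, and Lpar1 0.21 and Vim 0.26 at the low dose. Of committed progenitor and proneural genes 12 of 14 were tested (medians -0.06 and 0.04), with Tbr1, a factor of glutamatergic neurons, at -0.38 and the Notch ligand gene Dll1 at -0.15 at the high dose, and Neurod6 at 0.24 and Elavl2 at -0.18 at the low dose. Of the 5 tested cell cycle genes the medians were -0.0036 and 0.05, with Ccna2 at -0.12 and Mcm6 at 0.09 at the high dose, and Hmgb2, a chromatin protein of dividing cells, at 0.25 and Pcna at 0.06 at the low dose. Of genes for the cytoskeleton and adhesion of immature neurons 20 of 22 were tested (medians -0.06 and -0.02), with Tmsb10 at -0.16 and the tubulin gene Tubb2b at -0.17 at the high dose, and Cd24a at 0.17 and Dpysl3 at 0.14 at the low dose. Of these 20, 4 had a higher and 16 a lower mean at the high dose, and 8 a higher and 12 a lower mean at the low dose. Of niche signals 18 of 24 were tested (medians -0.06 and 0.05), with Reln, the secreted guide of migrating neurons, at -0.21 and the growth factor gene Vegfa at -0.20 at the high dose, and Cdk5 at 0.24 and Frzb at 0.20 at the low dose. Of these 18, 6 had a higher and 12 a lower mean at the high dose, and 13 a higher and 5 a lower mean at the low dose. In these 5 lists 0 genes passed in either direction in any of the 3 dose comparisons (limma adjusted p = 1.00 for each gene named against control).

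Markers of granule cells, several of which, such as Prox1, are also used by young granule neurons, had medians of 0.0044 at the high dose and 0.05 at the low dose, with 0 of 12 past the threshold. Tdo2 had 0.30 and Prox1 -0.22 at the high dose (limma adjusted p = 1.00 each). Markers of other cells that use the same genes gave 0 calls in the comparisons with control: Cajal-Retzius cells (4 of 8 tested, medians -0.01 at the high and -0.08 at the low dose), mossy cells (6 of 8, 0.01 and -0.01), endothelium and pericytes (10 of 12, 0.04 and 0.05), oligodendrocyte precursors (6 of 8, 0.02 and 0.08) and microglia (7 of 8, 0.01 and 0.04). The choroid plexus and ependyma list had medians of 0.23 and 0.29 (9 of 10 tested, 0 passed) and the meninges and fibroblast list 0.25 and 0.14 (7 of 8 tested, 0 passed). All 9 tested choroid plexus and ependyma genes had higher means at both doses. All 7 tested meninges and fibroblast genes did so at the high dose, and 6 at the low dose, where 1 was lower.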

How the data were processed

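Per the submitters' processing notes the authors made the deposited values with RMA in R 3.0.1, with settings and genome build not given in the sources used here. Values are log2 expression per probe set as deposited for 6 Affymetrix mouse arrays, with the scale read from the values (6.10 to 15.31). Per the labels, total RNA was amplified and biotin-labelled. Scanner files and detection calls were not used here. No 2 arrays were identical.

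Probe sets were named through the supplied platform annotation, with symbols updated by Entrez identifier (34741 of 34945 with 1 symbol matched); 932 with several symbols and 9160 with none were not named, and 64 control probe sets were set aside. Genes above the array median on at least 2 arrays (11743) were tested with limma 3.58.1 in R 4.3.3 (lmFit, eBayes, two-sided, Benjamini-Hochberg), with 1 coefficient per dose group over all 6 arrays; dates and sides were compared with dose group as a term. In the main date and side fits all genes shared 1 estimate of the spread, but not in every alternative, such as the mean of probe sets or quantile normalization. Dose fits with date, replicate number or side as a term, and those without a control or high dose array, also shared 1 estimate. Fits of single probe sets used all 34945. Fits were tested on simulated arrays. The number of arrays limits the precision.

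Members and lists were chosen with earlier results of these data known. Named genes are the members, list genes past the threshold or, failing that, taken from the 2 with the largest moderated statistic per list and comparison, and the 3 genes nearest in pattern to Dcx and to the tested member with the widest range. Replicate numbers equal the hybridization date for high dose and control only; replicate 2 minus replicate 1 correlated over genes at 0.540 between these groups, 0.0765 between low dose and control and 0.133 between high and low dose. Alternatives were another filter, the mean of probe sets, quantile normalization, date, replicate number or side as a term, another variance prior and leaving out each array.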

Additional observations from a re-analysis of the deposited data

Results flagged for a closer look

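For 4 of the 7 tested genes the difference between high dose and control had opposite signs in left and in right pools. The left minus right gap between these differences was -0.63 for Neurod1 (-0.24 in left and 0.39 in right pools), 0.37 for Calb2 (0.11 and -0.26), 0.22 for Igfbpl1 (0.15 and -0.06) and -0.04 for Dcx (-0.01 and 0.03). Each side holds 1 high dose and 1 control array, which also differ in date, so the gap was not tested. Over all tested genes the median difference between high dose and control was 0.026 in left and -0.087 in right pools. How many of all tested genes had opposite signs was not counted.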

How the results depend on the processing

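No tested gene of the 10 passed the threshold in a dose or side comparison under any of the alternatives run, the date and the replicate number as a block included, so the block changed no call among them. Over all genes, the block of date against that of replicate number gave 44 and 10 calls at the high dose, 21 and 32 at the low dose and 3 and 45 between the doses, where 1, 5 and 0 were called without a block. With side as a term the counts were 3, 17 and 11, and with trend and robust settings 14, 17 and 25. High and low dose against control had 0 calls each without the filter, with the mean of probe sets and after quantile normalization, and the high dose 2 with the stricter filter. Leaving out each array gave 0 to 178, 0 to 546 and 0 to 152 calls in the 3 dose comparisons. The 818 calls between dates became 517 with the mean of probe sets, 1505 after quantile normalization and 352 with side as a term, and 154 to 764 without 1 array. Side calls were 0 to 3 without 1 array.

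The Neurod1 date difference stayed at 0.32 with side as a term and with trend and robust settings, but missed the threshold (adjusted p = 0.0935 and 0.0593). The sign of several differences that had not passed the threshold turned. With the mean of probe sets Neurod1 was -0.0011 at the high dose, 0.06 at the low dose and -0.06 between the doses, Sox4 0.03 between the doses, and the left against right values of Dcx and Sox11 were -0.0017 and -2e-05. With the date as a block Neurod1 was 0.13 at the low dose and -0.06 between the doses, and Igfbpl1 0.04 between the doses. Leaving out each array, the high dose value ran from -7.9e-05 to 0.02 for Dcx, -0.20 to 0.36 for Neurod1, -0.19 to 0.04 for Calb2 and -0.03 to 0.12 for Igfbpl1. The low dose value ran from -0.06 to 0.01 for Neurod1 and -0.02 to 0.13 for Igfbpl1, and that between the doses from -0.18 to 0.38 and from -0.04 to 0.02. Between dates Sox4 ran from -0.08 to 0.12 and Nes from -0.05 to 0.05. Between sides Sox11 ran from -0.05 to 0.15, Neurod1 from -0.28 to 0.03, Calb2 from -0.04 to 0.30 and Igfbpl1 from -0.10 to 0.01. Without 1 array the Sox11 and Sox4 high dose values ran from -0.33 to -0.10 and from -0.23 to -0.11. The cause of these shifts was not tested. Eomes, Mki67 and Top2a did not pass either in the fit without a filter or in that over all probe sets. Their signals lay below the array median, and how far background limits their changes was not tested.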
